A study of Monodelphis domestica with 6 samples.

Results

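The genes of cholesterol and fatty acid synthesis were examined in opossum skin fibroblasts and in the induced pluripotent stem cells (iPSCs) made from them. They were chosen by name as a list of 29 genes, of which 26 had a row among the 35665 genes of the deposited tables. IDI1, CYP51A1 and SREBF2 had no row under these symbols and were not analysed here. The neonatal skin fibroblasts (neoSFs) were wild type, untreated primary cultures from 10-day-old female pups of the inbred strains FD2M1 and LSD1, with 1 library per strain. The monoiPSCs were 1 line per strain, reprogrammed from wild-type neoSFs with episomal plasmids for human OCT4, SOX2, NANOG, KLF4, LIN28 and cMYC, together with plasmids for EBNA1 and a dominant negative p53. Each line was sequenced at passage 15 and at passage 25, which gives 4 monoiPSC libraries from 2 lines. The neoSFs were grown with fetal bovine serum and the monoiPSCs in a defined medium with N-2 and B-27 supplements, human LIF, bFGF and a ROCK inhibitor. The laboratory sequenced the neoSF libraries itself with short single-end reads, and a commercial service sequenced the monoiPSC libraries with longer paired-end reads. Cell type, medium and sequencing platform therefore cannot be told apart in the comparison of neoSFs with monoiPSCs.

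Cholesterol is built from acetyl-CoA through the mevalonate pathway, then squalene, lanosterol and a series of sterol intermediates. The same acetyl-CoA feeds fatty acid synthesis. Both routes are controlled by the sterol regulatory element-binding proteins (SREBPs), membrane-bound transcription factors that SCAP carries from the endoplasmic reticulum to the Golgi when sterols are scarce, and that the INSIG proteins hold back when sterols are plentiful. Liver X receptors act in the opposite situation, are activated by oxysterols, and raise cholesterol export through ABCA1. In cultured cells, lipoproteins from serum are a known source of cholesterol that lowers the demand for synthesis.

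The total count was between 14278794 and 16982978 in the neoSF libraries and between 28684754 and 35564261 in the monoiPSC libraries. All 6 pluripotency markers were higher in every monoiPSC library than in either neoSF library, and 5 of them had at most 3 counts in each neoSF library. All 9 fibroblast markers with a row were higher in both neoSF libraries, with a summed normalized read count (NRC) of 1530473.1 to 1686737.4 against 4798.6 to 8462.1 in monoiPSCs. Of the 6 adipocyte markers with a row, ADIPOQ and LEP were at or under 3 counts in every library, and the summed NRC was 2915.4 to 7388.3 in neoSFs and 677.0 to 876.7 in monoiPSCs. Most of this sum was LPL, 2 of the 6 markers (LPL and PLIN1) were higher in both neoSF libraries, and CD36 and CIDEC overlapped between the groups. The summed NRC of 8 hepatocyte and yolk sac markers was 525.7 to 1252.7 in neoSFs and 12.8 to 64.7 in monoiPSCs, with ALB, APOA2 and GATA4 at the floor of 3 counts in both groups and GATA6 as most of the neoSF sum. Of 3 melanocyte markers, only DCT was higher in every monoiPSC library, at an NRC of 4372 to 15279 against at most 3 counts in neoSFs. TYR stayed at an NRC of at most 6.73 in all libraries, and MLANA was lower in monoiPSCs, at 1.03 to 18.2 against 18.5 and 21.8. The summed NRC of 2 keratinocyte markers, mostly DSG3, was 53.7 to 151.5 in neoSFs and 0.0 to 6.7 in monoiPSCs. The part of these other cells in the results for lipid genes was not tested, and in bulk RNA fewer cells of a type and less RNA per cell cannot be told apart.

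All 26 genes passed the expression filter, which asked for an NRC of 20 or more throughout at least 1 of the groups. Their counts ran from 45 for HSD17B7 to 4430 for SCD in neoSFs and from 45 for NR1H3 to 24539 for FASN in monoiPSCs. A gene counted as differentially expressed (DE) when it changed 2-fold or more between monoiPSCs and neoSFs and its p, adjusted after Benjamini and Hochberg, did not exceed 0.05 in edgeR's quasi-likelihood test. By this rule 6 of the 26 genes were higher in monoiPSCs, which is 23.1%, beside 24.3% of all 13072 genes tested. The 3 lower genes are 11.5% of the list, beside 21.6% of all genes tested. In either direction this makes 9 genes, or 34.6%, beside 45.9%. The share called higher was thus close to the background and the share called lower was below it. The 6 higher genes were MVD, FDPS, SQLE, MSMO1, INSIG1 and FASN, and the 3 lower genes were MVK, INSIG2 and NR1H3. At the adjusted p alone, whatever the fold, 11 genes were higher (42.3%, beside 32.8% of all genes) and 5 were lower (19.2%, beside 29.4%), together 61.5% beside 62.2%. These counts rested in part on single libraries. Without the FD2M1 neoSFs, 4 genes were higher (MVD, FDPS, SQLE and FASN), beside 28.1% of all genes, and 3 were lower (MVK, INSIG2 and NR1H3), beside 25%. The median log2 fold change of the list was 0.49, and that of all genes tested was 0.08. The groups did not overlap for 17 of the 26 genes, which is 65.4%, beside 73.2% of all genes tested. Of these, 12 genes were higher in monoiPSCs, a direction found for 36.1% of all genes, and 5 were lower, a direction found for 37.1%. The same 9 genes were called with DESeq2, where 24% of all genes were higher and 22.5% lower, with limma (23% and 23.1%), with RLE scaling (23.3% and 22.4%) and with strain as a replicate block (24.4% and 21.6%).

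**Figure D1:**
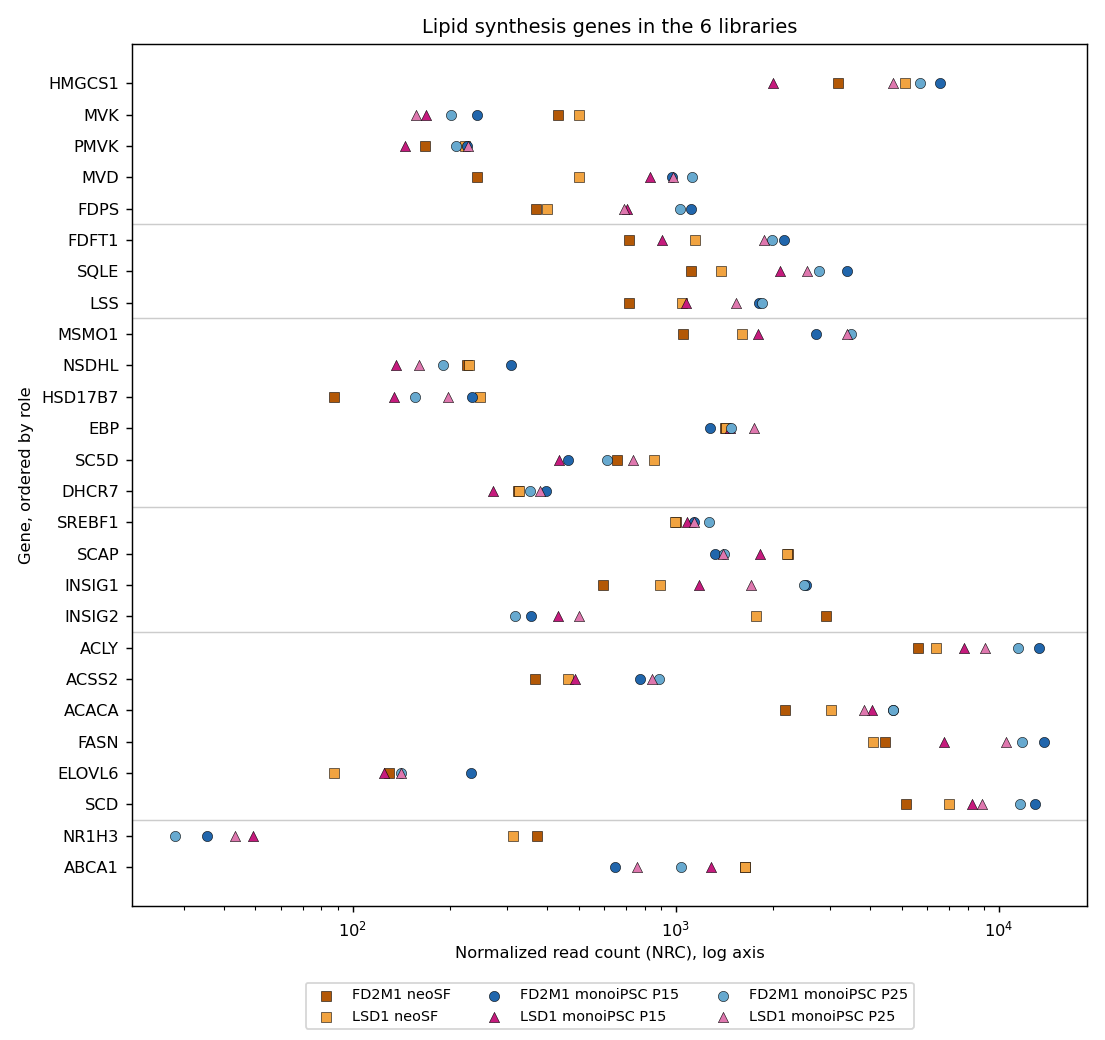
NRC on a log axis for each of the 26 genes, ordered by role (mevalonate, squalene and lanosterol, later sterol steps, SREBP control, fatty acid synthesis, liver X receptor and efflux, separated by grey lines). Squares are the 2 neoSF libraries, circles the FD2M1 and triangles the LSD1 monoiPSC libraries at passages (P) 15 and 25, and for 12 genes every monoiPSC library lies to the right of both squares.

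Among the 5 mevalonate genes, 2 were called higher in monoiPSCs, beside 24.3% of all genes, and 1 lower, beside 21.6%. The other 2 did not pass the test. The counts by role, in groups this small, are descriptions. MVD (gene 100026108, chromosome 1 of MonDom5), the decarboxylase that makes isopentenyl diphosphate, had 242.8 normalized reads in FD2M1 neoSFs and 499.8 in LSD1 neoSFs. After reprogramming the NRC was 971.0 and 1125 in FD2M1 at passages 15 and 25, and 831.9 and 980.5 in LSD1. The groups did not overlap for MVD, and the SD of its NRC was 181.7 in the 2 neoSF libraries and 119.6 in the 4 monoiPSC libraries. The log2 fold change of MVD was 1.49 (standard error 0.31, edgeR adjusted p = 0.00435), which is 2.80-fold, and it became 2.12 without the LSD1 and 1.05 without the FD2M1 neoSF library. FDPS (gene 103092979, chromosome 2), which makes farnesyl diphosphate, had an NRC of 369.4 and 398.4 in the neoSFs. In the monoiPSCs it was 1113 and 1028 in FD2M1 and 703.8 and 690.4 in LSD1 at passages 15 and 25. FDPS was thus higher in all 4 monoiPSC libraries, with the LSD1 line below the FD2M1 line at both passages. Its log2 fold change was 1.30 (standard error 0.26, edgeR adjusted p = 0.00393).

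MVK (gene 100016213, chromosome 3), mevalonate kinase, moved the other way. Its NRC was 430.9 and 500.1 in the FD2M1 and LSD1 neoSFs, 242.4 and 201.6 in the FD2M1 monoiPSCs and 168.3 and 157.2 in the LSD1 monoiPSCs at passages 15 and 25. The groups did not overlap, and MVK fell by 1.18 on the log2 scale (standard error 0.25, edgeR adjusted p = 0.00453). PMVK, the next kinase of the pathway, had an NRC of 145.0 to 227.7 in monoiPSCs and 167.2 and 223.1 in neoSFs, and its log2 fold change of 0.14 had a 95% confidence interval from -0.54 to 0.81. HMGCS1 (gene 100012956, chromosome 3), the synthase that commits acetyl-CoA units to this route, had an NRC of 3174 and 5121 in the neoSFs. In the monoiPSCs it was 6553 and 5703 in FD2M1 but 1997 and 4708 in LSD1 at passages 15 and 25. The LSD1 library at passage 15 was the lowest of all 6 libraries for HMGCS1 and the FD2M1 library at passage 15 the highest. Its log2 fold change was 0.29 (edgeR adjusted p = 0.597), with a 95% confidence interval from -0.76 to 1.33 that reaches past a 2-fold rise.

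The 3 enzymes from farnesyl diphosphate to lanosterol had log2 fold changes between 0.93 and 1.21. SQLE (gene 100032247, chromosome 3), squalene epoxidase, a control point of the sterol branch, had an NRC of 1116 and 1383 in the neoSFs. Its NRC was 3396 and 2767 in the FD2M1 and 2099 and 2550 in the LSD1 monoiPSCs at passages 15 and 25. All 4 monoiPSC libraries were above both neoSF libraries, with a log2 fold change of 1.21 (standard error 0.23, edgeR adjusted p = 0.00273) that ranged from 1.06 to 1.38 over the fits with a library omitted. LSS, lanosterol synthase, was past the adjusted p and just under the 2-fold threshold, at 0.93 on the log2 scale (standard error 0.27, edgeR adjusted p = 0.0200). Its groups did not overlap, but only narrowly, with an NRC of 1042 in the LSD1 neoSFs and 1076 in the LSD1 monoiPSCs at passage 15. FDFT1, squalene synthase, had an NRC of 715.1 and 1142 in the neoSFs and of 2159, 1981 and 1871 in 3 monoiPSC libraries. In the LSD1 monoiPSCs at passage 15 it was 908.1, between the neoSF libraries. With that library FDFT1 was not called (log2 fold change 0.99, edgeR adjusted p = 0.0510), and without it the log2 fold change was 1.20 (edgeR adjusted p = 0.00724, range over all alternatives 0.00724 to 0.244).

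Of the 6 later sterol enzymes with a row, 1 was called higher in monoiPSCs, beside 24.3% of all genes, and 5 did not pass the test. The higher gene was MSMO1 (gene 100015712, chromosome 5), the methylsterol monooxygenase that acts at carbon 4 of the sterol ring. Its NRC was 1054 and 1597 in the neoSFs, 2716 and 3488 in the FD2M1 and 1793 and 3380 in the LSD1 monoiPSCs at passages 15 and 25. The groups did not overlap, and the log2 fold change was 1.19 (standard error 0.31, edgeR adjusted p = 0.0125). Without the FD2M1 neoSF library it was 0.92 and no longer called (edgeR adjusted p = 0.0825, range over all alternatives 0.00117 to 0.0825). NSDHL, which works on the same carbon, HSD17B7, the ketoreductase of that step, EBP, the sterol isomerase, SC5D, the desaturase after it, and DHCR7, the last reductase, had log2 fold changes between -0.34 and 0.19. EBP had the narrowest 95% confidence interval of these 5 genes, from -0.21 to 0.54, which leaves out a 2-fold change in either direction. That interval holds for TMM scaling. With total counts as library sizes EBP was 0.69 (edgeR adjusted p = 0.00695) and DHCR7 0.71 (edgeR adjusted p = 0.0233), both past the adjusted p. The interval of HSD17B7 was wide, from -0.85 to 1.24, and its neoSF libraries stood at 87.4 in FD2M1 and 247.2 in LSD1. NSDHL and EBP lie on the X chromosome of MonDom5 and the other genes of the list on autosomes.

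**Figure D2:**
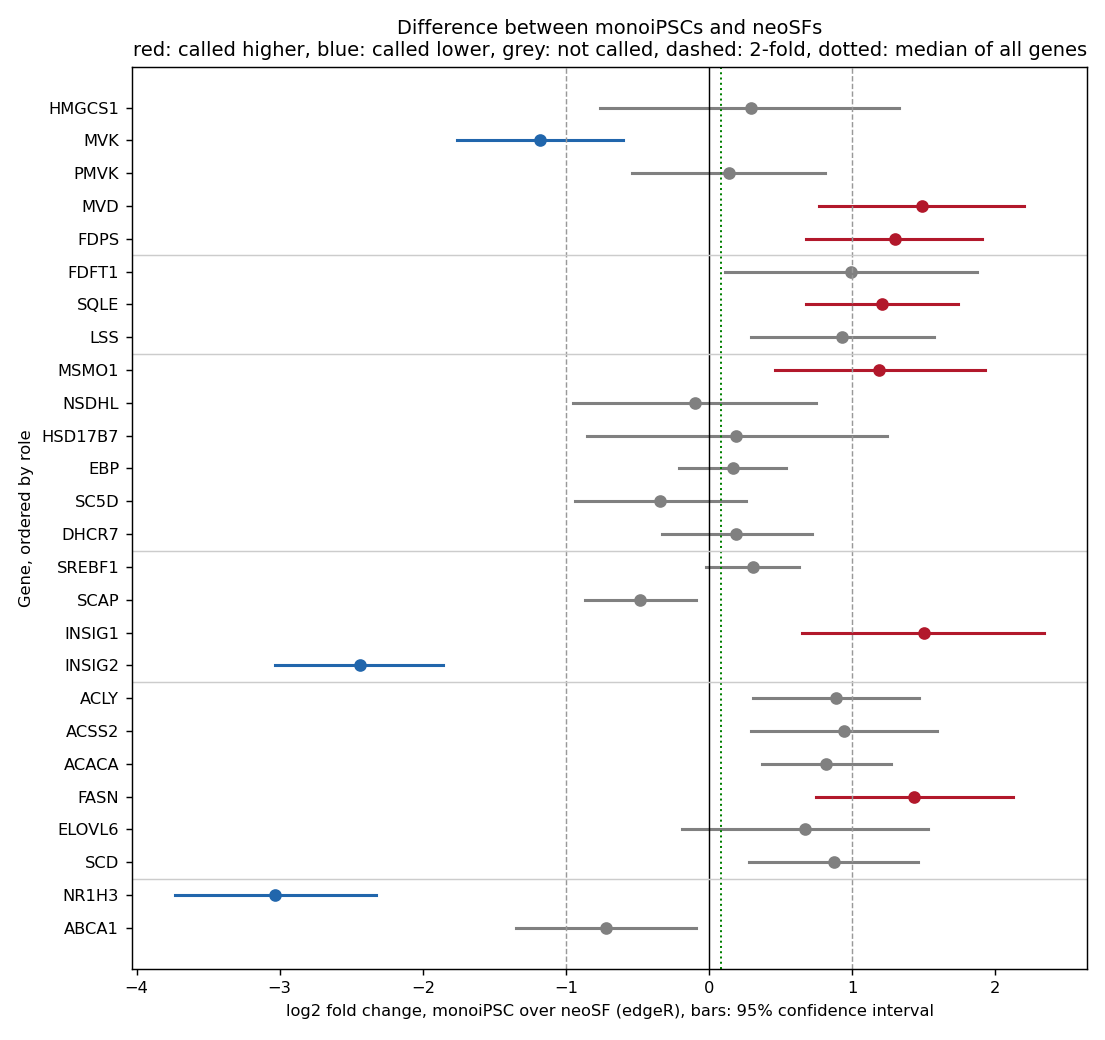
Log2 fold change of monoiPSCs over neoSFs for the 26 genes, in the order of their roles, with the 95% confidence interval from edgeR as a bar. Red genes were called higher and blue genes lower, the dashed lines mark 2-fold and the dotted line marks the median of all genes tested at 0.08. INSIG2 and NR1H3 lie farthest to the left, at -2.44 and -3.03.

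The genes of SREBP control did not move together. INSIG1 and INSIG2 encode related proteins of the endoplasmic reticulum that retain the complex of SCAP and SREBP, and INSIG1 is itself a known SREBP target. INSIG1 (gene 100020142, chromosome 8) had an NRC of 596.1 and 895.8 in the FD2M1 and LSD1 neoSFs, 2522 and 2490 in the FD2M1 monoiPSCs and 1180 and 1713 in the LSD1 monoiPSCs at passages 15 and 25. It was higher in all 4 monoiPSC libraries, most of all in the FD2M1 line, with a log2 fold change of 1.50 (standard error 0.36, edgeR adjusted p = 0.00849). Without the FD2M1 neoSF library it was 1.23 and no longer called (edgeR adjusted p = 0.0572, range over all alternatives 0.000169 to 0.0572). INSIG2 (gene 100011185, chromosome 4) had an NRC of 2906 and 1768 in the neoSFs and of 356.9, 317.2, 430.6 and 499.7 in the monoiPSCs of FD2M1 and then LSD1. Every monoiPSC library was below both neoSF libraries, and INSIG2 fell by 2.44 on the log2 scale (standard error 0.25, edgeR adjusted p = 0.000182), which is 5.44-fold lower. Of all genes tested, 8.73% had a lower log2 fold change than INSIG2.

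The ratio of INSIG1 to INSIG2 within a library does not depend on how the libraries are scaled. For each INSIG2 count, FD2M1 neoSFs held 0.205 INSIG1 counts and LSD1 neoSFs 0.507. In the monoiPSCs the ratio was 7.07 and 7.85 in FD2M1 and 2.74 and 3.43 in LSD1 at passages 15 and 25. INSIG2 thus had more counts than INSIG1 in both neoSF libraries, and INSIG1 more than INSIG2 in all 4 monoiPSC libraries. The neoSFs had a log2 ratio of -1.63 ± 0.92 (SD, n = 2) and the monoiPSCs one of 2.26 ± 0.75 (SD, n = 4 libraries from 2 lines). The difference was 3.89 or 14.8-fold, with a two-sided p of 0.0667 in an exact permutation test, which is the smallest p that 15 splits allow. That test took the 4 monoiPSC libraries as independent. They are 2 passages of each of 2 lines, so its p does not measure the spread between lines. The difference was 3.24 without the FD2M1 and 4.54 without the LSD1 neoSF library. The lengths of both transcripts enter the ratio, so it does not say which RNA is the more abundant per molecule.

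**Figure D3:**
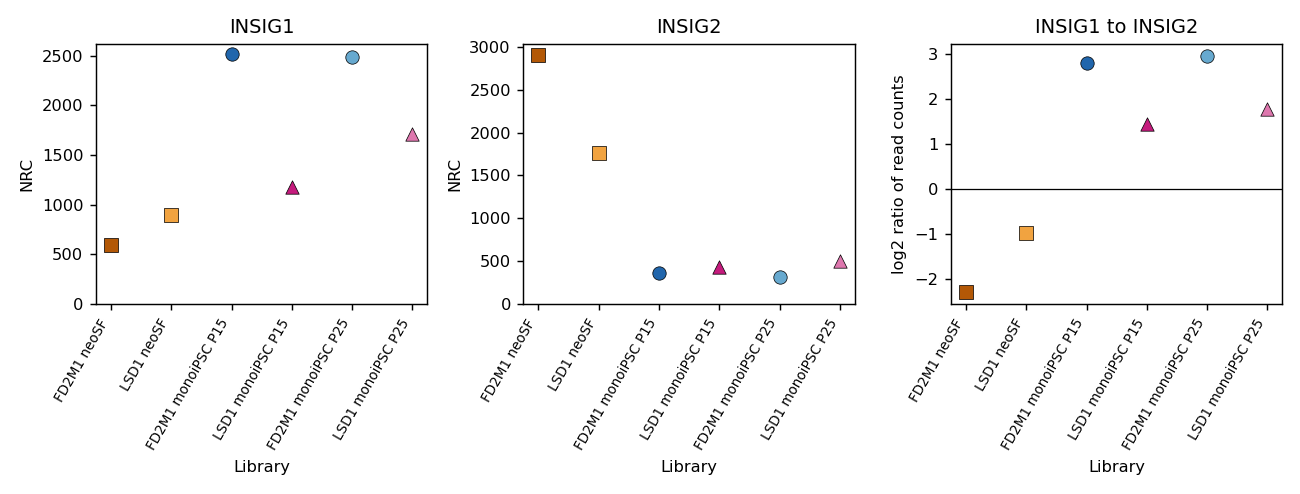
NRC of INSIG1 (left) and INSIG2 (middle), and the log2 ratio of their read counts (right), in each of the 6 libraries. Squares are neoSFs, circles FD2M1 and triangles LSD1 monoiPSCs, and the ratio is below 0 in both neoSF libraries and above 0 in all 4 monoiPSC libraries.

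SCAP (gene 100018461, chromosome 6), the escort of the SREBPs, had an NRC of 2217 and 2206 in the neoSFs. In the monoiPSCs it was 1321 and 1405 in FD2M1 and 1824 and 1396 in LSD1 at passages 15 and 25, lower in every library than in the neoSFs. Its log2 fold change was -0.48 (standard error 0.17, edgeR adjusted p = 0.0381), past the adjusted p but short of 2-fold, and it was 0.05 when total counts were used as library sizes. It was not past the adjusted p when any library other than LSD1 monoiPSCs at passage 15 was left out. SREBF1 (gene 100029730, chromosome 6) encodes SREBP1, whose isoforms are summed in the gene counts. Its NRC was 1002 and 993.1 in neoSFs and 1085 to 1266 in monoiPSCs. Although the groups did not overlap, the log2 fold change of 0.31 was not past the threshold (95% confidence interval -0.02 to 0.63, edgeR adjusted p = 0.0872), and the interval leaves out a 2-fold change. With total counts as library sizes it was 0.83 and past the adjusted p (edgeR adjusted p = 0.00156, range over all alternatives 0.00156 to 0.253). The counts measure RNA and not the cleaved, active SREBPs.

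All 6 fatty acid synthesis genes had a positive log2 fold change, where the median of all genes tested was 0.08. Past the adjusted p and higher were 5 of them, beside 32.8% of all genes. Past both thresholds was 1, beside 24.3% of all genes called higher. Without the FD2M1 neoSF library only FASN remained past the adjusted p, and ACLY, ACSS2, ACACA and SCD had edgeR adjusted p of 0.0859, 0.112, 0.0548 and 0.117. The gene past both thresholds was FASN (gene 100025176, chromosome 2), the fatty acid synthase that builds palmitate. Its NRC was 4422 and 4073 in the neoSFs, 13772 and 11787 in the FD2M1 and 6748 and 10539 in the LSD1 monoiPSCs at passages 15 and 25. The groups did not overlap, and the log2 fold change of 1.43 (standard error 0.29, edgeR adjusted p = 0.00412) ranged from 1.28 to 1.60 over such fits. ACACA (gene 100017988, chromosome 2), the acetyl-CoA carboxylase that supplies malonyl-CoA, had an NRC of 2180 and 3024 in neoSFs. In the monoiPSCs it was 4701 and 4684 in FD2M1 and 4039 and 3814 in LSD1. ACACA was the most even of these genes across the monoiPSC libraries, with the highest 1.23 times the lowest, and its log2 fold change was 0.82 (standard error 0.19, edgeR adjusted p = 0.00758).

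ACLY and ACSS2 supply cytosolic acetyl-CoA from citrate and from acetate. ACLY (gene 100011977, chromosome 2) had an NRC of 5631 and 6366 in neoSFs and of 7790 to 13309 in monoiPSCs, with a log2 fold change of 0.89 (standard error 0.25, edgeR adjusted p = 0.0159). ACSS2 (gene 100032395, chromosome 1) had 366.9 and 462.7 in neoSFs and 486.0 to 883.5 in monoiPSCs, with a log2 fold change of 0.94 (standard error 0.28, edgeR adjusted p = 0.0201). For both genes the lowest monoiPSC library was LSD1 at passage 15, still above both neoSF libraries. SCD (gene 100014196, chromosome 1), which desaturates stearoyl-CoA, had 5161 and 7017 in neoSFs and 8255 to 12957 in monoiPSCs, again without overlap, and a log2 fold change of 0.87 (standard error 0.25, edgeR adjusted p = 0.0186). ELOVL6, which lengthens palmitate, was the exception, with 129.1 and 87.7 in neoSFs and 125.2 to 232.3 in monoiPSCs. The groups of ELOVL6 overlapped and it did not pass the test (log2 fold change 0.67, 95% confidence interval -0.19 to 1.53, edgeR adjusted p = 0.150).

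Both genes of cholesterol export, a regulator and a transporter, were lower in monoiPSCs. NR1H3 (gene 100124291, chromosome 5), which encodes liver X receptor alpha, had an NRC of 371.6 and 312.3 in the neoSFs and of 35.4, 28.2, 49.2 and 43.3 in the monoiPSCs of FD2M1 and then LSD1. Every monoiPSC library was far below both neoSF libraries, and NR1H3 fell by 3.03 on the log2 scale (standard error 0.30, edgeR adjusted p = 0.000162), which is 8.17-fold lower and the lowest value of the list. ABCA1 (gene 100013781, chromosome 6), the transporter that passes cholesterol to apolipoproteins, had 1640 and 1641 in the neoSFs. In the monoiPSCs it was 646.7 and 1035 in FD2M1 and 1281 and 758.3 in LSD1 at passages 15 and 25. ABCA1 was lower in all 4 monoiPSC libraries with a log2 fold change of -0.72 (standard error 0.27, edgeR adjusted p = 0.0483), past the adjusted p but short of 2-fold, and its adjusted p ranged from 0.0153 to 0.571 over all alternatives. It was not past 0.05 with strain as a replicate block (edgeR adjusted p = 0.0558) or when any library other than LSD1 monoiPSCs at passage 15 was left out.

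Total counts as library sizes, in place of TMM scaling, raised the median log2 fold change of all genes to 0.61. With them 13 genes of the list were called higher, beside 36.6% of all genes, and 2 lower, beside 14.8%, while 71.3% of all called genes were higher in place of 52.9%. Relative to the median of all genes, the median of the list was 0.41 with TMM scaling and 0.40 with total counts. It was 0.26 with no expression filter and 0.28 with a filter of at least 10 counts in at least 2 libraries. Leaving out each library in turn gave 0.30 to 0.73. MVK lost its call with total counts as library sizes, at -0.66.

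The difference between monoiPSCs and neoSFs was larger in FD2M1 than in LSD1 for most of the list, but not past the test for any gene. On the deposited log2 values, with each line set against its parental strain's neoSFs, the median difference of the 26 genes was 1.03 in FD2M1 and 0.18 in LSD1. For all genes tested it was -0.02 in both strains. A difference of at least 1 upwards was seen for 13 genes in FD2M1 (50%, beside 24.2% of all genes) and for 1 gene, FASN, in LSD1 (3.85%, beside 24.7%). The 14 sterol enzymes had a median of 1.04 in FD2M1 and 0.07 in LSD1, and the 6 fatty acid synthesis genes 1.15 and 0.43. In the neoSFs, all 14 sterol enzymes were higher in LSD1 than in FD2M1, with a median log2 difference of 0.40, while 47% of all genes tested were higher in LSD1 and their median was -0.02. Some were nearly equal in FD2M1 and LSD1, with an NRC of 225.5 and 229.3 for NSDHL, 1416 and 1427 for EBP, and 325.2 and 328.0 for DHCR7. With 1 neoSF library per strain the difference between the neoSFs has no replicate check.

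The change of cell type was tested for a difference between strains with an interaction term. No gene of the list was called, beside 0.0841% of all genes tested, and the smallest adjusted p in the list was 0.325 (edgeR's quasi-likelihood test). MVD, LSS, HSD17B7, INSIG1, ACACA, SCD and INSIG2 had an unadjusted p under 0.05, which makes 7 genes, beside 9.13% of all genes. In 6 of them, all but INSIG2, the value was lower in LSD1, beside 3.82% of all genes. DESeq2 called 0 genes of the list and 2.33% of all genes. INSIG1 had a log2 difference of 2.07 in FD2M1 and 0.67 in LSD1, and INSIG2 of -3.11 and -1.93. HMGCS1 pointed up in FD2M1, at 0.95, and down in LSD1, at -0.74. The residual spread in this test comes from the 2 passages of each line, and neither neoSF library has a replicate.

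**Figure D4:**
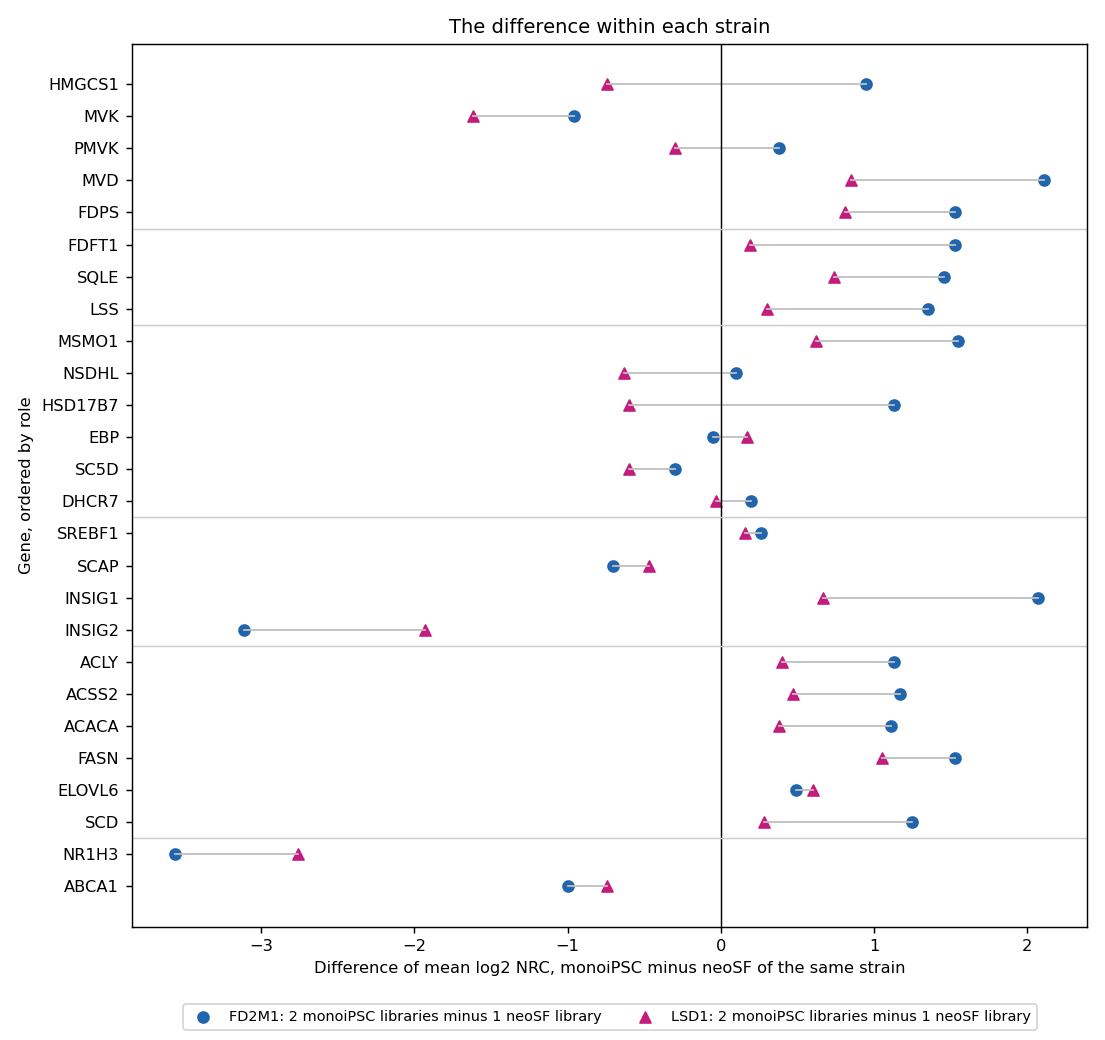
Mean log2 NRC of the 2 monoiPSC libraries minus that of the neoSF library of the same strain, for each of the 26 genes. Circles are FD2M1 and triangles LSD1, joined by a grey line, and for most enzymes the circle lies to the right, with medians over the list of 1.03 and 0.18.

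Among the monoiPSC libraries themselves, the LSD1 line at passage 15 was the lowest for 18 of the 26 genes, which is 69.2%, beside 23% of the 12252 genes expressed in all 4 monoiPSC libraries. The FD2M1 line at passage 15 was the highest for 14 genes, which is 53.8%, beside 29% of all genes. For the 20 enzymes, the median log2 deviation from the mean of the 4 libraries at passage 15 was -0.37 for LSD1 and 0.35 for FD2M1. At passage 25 it was 0.02 and 0.17. The largest spread was that of HMGCS1, where the highest monoiPSC library held 3.28 times the NRC of the lowest. SCAP, NR1H3 and ABCA1 were highest in the LSD1 library at passage 15, in which most enzymes were lowest. The share of all genes highest in that library is not given here. For NR1H3 the NRC was 49.2 in it and 43.3 in LSD1 at passage 25. ABCA1 at passage 25 was lower in LSD1, at 758.3, than in FD2M1, at 1035. The genes of the list share their libraries, so their order is not independent evidence from gene to gene.

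Both LSD1 libraries lay below both FD2M1 libraries for 13 of the 26 genes, which is 50%, beside 22.6% of all genes, and above them for 2 genes, beside 20.9%. With passage as a covariate, 0 genes of the list and 0 of all genes were called between the LSD1 and FD2M1 lines (edgeR's quasi-likelihood test, 0% of all genes called). At an unadjusted p under 0.05, 7 genes of the list were lower in LSD1, which is 26.9%, beside 7.01% of all genes, and none was higher. These were INSIG1, FDPS, SCD, ACLY, HMGCS1, LSS and FASN, with log2 differences between -0.99 for HMGCS1 and -0.51 for LSS, and their smallest adjusted p was 0.194, for INSIG1. DESeq2 called 1.57% of all genes and 0 genes of the list. For passage, in a fit that also held the strain, edgeR called 0 genes of the list and 0% of all genes, and DESeq2 0 genes of the list and 0.939% of all genes. MSMO1 and SC5D were the 2 genes of the list with an unadjusted p under 0.05 for passage, beside 9.35% of all genes, with log2 differences of 0.62 and 0.57 and adjusted p of 0.414 and 0.495 (edgeR). Each line is a single one per strain, so a difference between lines cannot be told apart from one between strains.

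**Figure D5:**
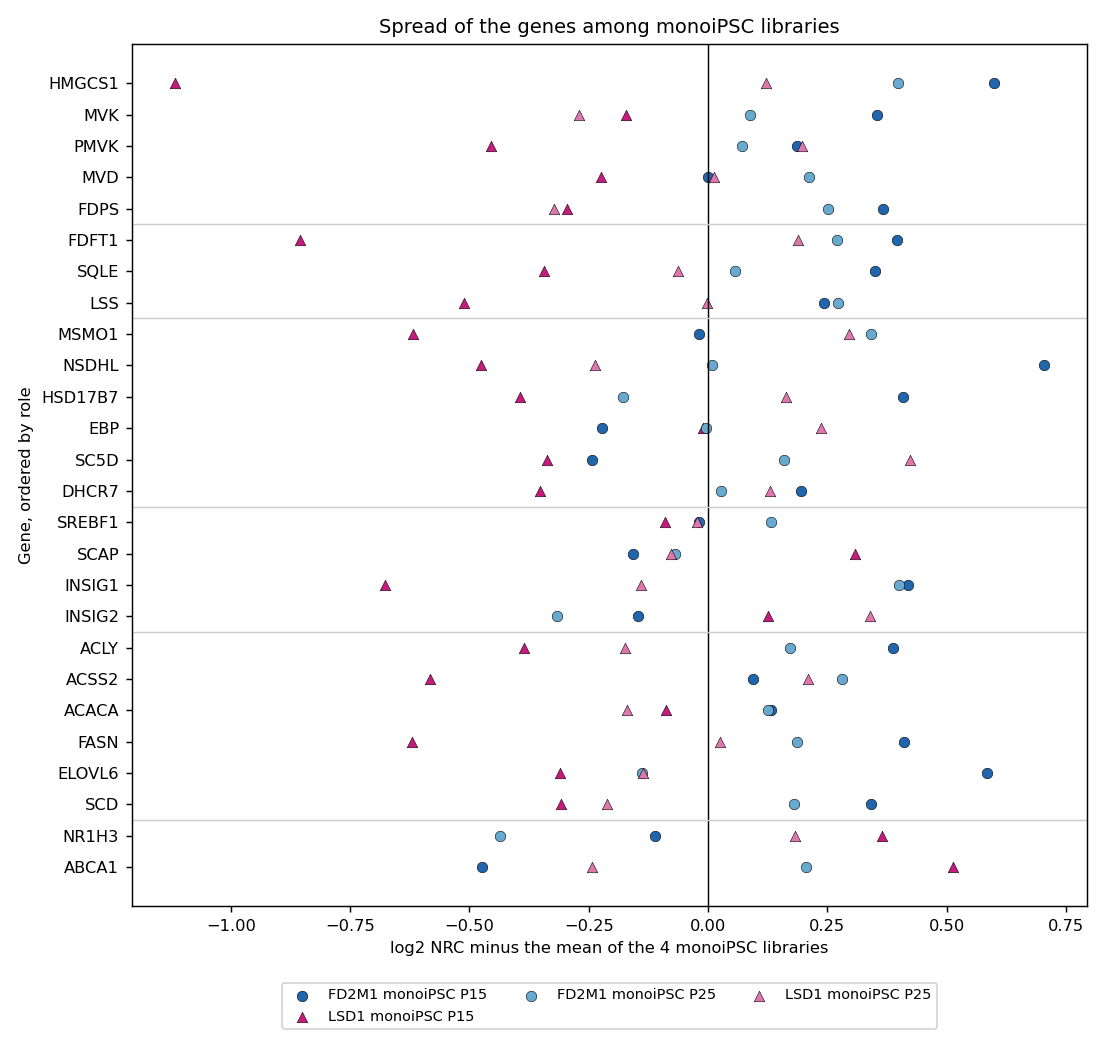
Log2 NRC of each monoiPSC library minus the mean of the 4, for each of the 26 genes, with circles for FD2M1 and triangles for LSD1. The dark triangles, LSD1 at passage 15, lie farthest to the left for 18 genes.

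A wider list of 67 other genes of sterol and fatty acid metabolism was examined beside the 26 genes, of which 60 had a row and 54 could be tested. In this list 10 genes were called higher in monoiPSCs (18.5%, beside 24.3% of all genes) and 12 lower (22.2%, beside 21.6%). The median log2 fold change was -0.22, beside 0.08 for all genes. The counts of its groups, of 3 to 9 genes each, stand beside the same shares of all genes and are descriptions. All 5 further sterol synthesis genes tested were called higher. LBR (gene 100019067, chromosome 2), which joins a sterol reductase to a lamin-binding domain of the nuclear envelope, had 729.8 and 738.3 in the neoSFs and 4379 to 5680 in the monoiPSCs, with a log2 fold change of 2.89 (standard error 0.18, edgeR adjusted p = 2.7e-05). The groups did not overlap for LBR.

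Of the 9 uptake and trafficking genes tested, 2 were called higher and 4 lower. Of the 9 fatty acid supply genes tested, 2 were called higher and 1 lower. ME1 (gene 100024530, chromosome 2), the malic enzyme that gives cytosolic NADPH, had an NRC of 880.2 and 588.9 in the neoSFs and of 5798 to 14507 in the monoiPSCs, with a log2 fold change of 3.83 (standard error 0.43, edgeR adjusted p = 0.000281). Of the 5 elongation and desaturation genes tested, 0 were called higher and 2 lower, and ELOVL1 (gene 100014679, chromosome 2), which lengthens very long chains, fell by 2.02 on the log2 scale (standard error 0.24, edgeR adjusted p = 0.000363). Of the 9 fatty acid oxidation genes, 1 was called higher and 2 lower. PPARA (gene 100014204, chromosome 8), a receptor that drives oxidation genes, had 173.2 and 209.4 in the neoSFs and 22.4 to 29.1 in the monoiPSCs, and fell by 2.77 on the log2 scale (standard error 0.29, edgeR adjusted p = 0.000203). Of the 3 oxysterol and efflux genes tested, 1 was called lower, which was the oxysterol hydroxylase CYP7B1 at -2.13 (edgeR adjusted p = 0.0437, range over all alternatives 0.00536 to 0.198). Its call was lost in 6 alternatives, among them those without the FD2M1 neoSFs (-2.48), the LSD1 neoSFs (-1.68), the LSD1 monoiPSCs at passage 15 (-1.95) and the FD2M1 monoiPSCs at passage 25 (-2.04). Of 7 further genes that act on SREBP activation or on enzyme turnover, 0 were called higher and 2 lower, and of 7 isoprenoid branch genes 0 were called in either direction, with 1 higher and 3 lower at the adjusted p alone.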

How the data were processed

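Alignment to MonDom5, filtering on quality and on reads with several matches, and quantification over RefSeq genes were done in StrandNGS v4. The values the authors deposited as counts are estimated counts, since 87.1% of those above 0 were fractional, and were rounded for testing. A table of DESeq-normalized log2 values was deposited beside them, and the NRC is 2 to the power of such a value. The 2 lines without a gene were left out. IDs carry the MonDom5 chromosome, no sequence was used here, and coordinates are not given.

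Genes that reached an NRC of 20 in every library of either group were tested with edgeR 4.0.16 (glmQLFTest, TMM scaling, R 4.3.3) over all genes, with Benjamini-Hochberg adjustment. The standard error is the log2 fold change divided by the square root of F. DESeq2 1.42.0 and limma 3.58.1 were alternatives. On simulated counts of 13072 genes, with 200 changed 4-fold, the comparison of cell types recovered 163 and called 12 unchanged genes, and the interaction recovered 71 and called 9. The simulated libraries were drawn independently. In the data 45.9% of genes were called between cell types and passages share a line, so these numbers may not hold there. The gene list, roles and wider list were chosen with earlier results of these data known. All 26 genes are described. Of the wider list, the genes to name were a few chosen by name and the 3 highest and 3 lowest called genes, and some of these are not reported here. SREBF2 had no row, so its planned ratio to SREBF1 was not computed. Strain pairs each line with the neoSFs it came from, although deviations of paired libraries correlated weakly across genes (r from -0.0101 to 0.0800). The libraries of a group are single cultures, and the passages of a line are not independent, so p-values measure the spread between these libraries. Intervals on counts cover counting error only.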

Additional observations from a re-analysis of the deposited data

Results flagged for a closer look

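Among the 4 monoiPSC libraries, 2 of the 26 genes had a library that stood apart from the other 3 by Dixon's criterion, and chance alone flags about 1 in 20 groups. SCAP was highest in LSD1 at passage 15, with an NRC of 1824, and its gap to the next library took up 0.834 of the group's range. ELOVL6 was highest in FD2M1 at passage 15, with an NRC of 232.3 and a gap of 0.851 of the range.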

How the results depend on the processing

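The count of 9 DE genes in the list stayed at 9, and these were the same genes, with RLE scaling, both other filters, DESeq2, limma on the deposited log2 values, strain as a replicate block, and both passages of a line summed. It was 15 with total counts as library sizes, of which 8 were among the 9, and 16 at the adjusted p alone. Of all 13072 genes tested, 6717 and 8137 passed in these settings, and 6000 in the main one. At the adjusted p alone, 11 genes were higher and 5 lower, and leaving out each library gave 4 to 12 and 3 to 5. Leaving out each library in turn gave 7 to 13 DE genes. Without the FD2M1 neoSFs it was 7, and MSMO1 and INSIG1 were lost. Without the LSD1 monoiPSCs at passage 15 it was 13, including ACSS2 and LSS, beside 5853 of all 13072 genes tested. Over the fits with a monoiPSC library left out, 5754 to 5920 of all genes were called. Over all genes tested, where edgeR called 0 between lines, 0 between passages and 11 for the interaction, DESeq2 called 192, 115 and 304, and leaving out each library gave 0 to 50, 0 to 215 and 0 to 110. In every one of these settings 0 genes of the list were called. Genes that were not called changed sign in places. With total counts as library sizes NSDHL was 0.42 and SC5D 0.18, and SCAP, which was past the adjusted p alone, 0.05. Leaving out each library moved HMGCS1 from -0.02 to 0.68, PMVK from -0.06 to 0.37, HSD17B7 from -0.37 to 1.14 and NSDHL from -0.40 to 0.05. The log2 ratio of INSIG1 to INSIG2 differed by 3.24 to 4.54. The cause of these changes was not tested.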
